A study of Mus musculus with 12 samples.

Results

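The immunoglobulin and plasma cell genes of pancreatic islets from female NOD mice are described here in 12 bulk RNA-seq libraries, 6 from mice given control IgG and 6 from mice given anti-CD3. Members were chosen by gene name from the authors' table of 13703 compared genes. They were the heavy chain, kappa and lambda variable (V) and constant genes together with Jchain, Mzb1, Sdc1, Tnfrsf17 and Txndc5. The rule found 64 genes. Of these, 60 were immunoglobulin genes: 22 heavy chain V, 26 kappa V and 1 lambda V segment, 7 heavy chain constant genes, Igkc and 3 lambda constant genes. The other 4 were Jchain, Mzb1, Sdc1 and Txndc5. Tnfrsf17, which encodes the plasma cell receptor BCMA, was not in that table and had 4 counts in all, each of them in 1 library, IgG 6. The table held the genes with a total count of at least 121 over the 12 libraries, and the members took 97.3% of the counts of the 429 annotated immunoglobulin genes.

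The mice were NOD/ShiLtJ wild-type animals, an inbred strain that develops autoimmune diabetes, euglycemic and 9 weeks old when dosing began. The control group received IgG and the treated group received anti-CD3, an antibody against the T cell receptor complex, at 2.5 mg/kg. Antibody was given weekly for 4 weeks, and islets were isolated with collagenase 2 or 3 days after the last dose. The labels name no antibody clone and do not state whether a library holds 1 mouse or a pool, so the tests measure the spread between these 12 samples. Libraries are called IgG 1 to IgG 6 and anti-CD3 1 to anti-CD3 6, after the numbers in their labels.

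An antibody is built from 2 heavy and 2 light chains. Each chain joins a variable region, which a developing B cell assembles from 1 of many V segments, to a constant region. The heavy chain constant gene sets the isotype: naive B cells use Ighm and Ighd, and activated cells may switch to an IgG gene or to Igha. Plasma cells, the antibody-secreting end stage of the B lineage, carry very high levels of these transcripts. A single expanded plasma cell clone can therefore put much of a library's V counts into 1 segment. B cells are a regular part of the leukocyte infiltrate around and in NOD islets.

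The IgG subclasses differ most in the hinge, the short stretch between the antigen-binding arms and the stem, whose cysteines join the heavy chains. The hinge exons of the 4 subclass genes are shown because these exons help tell the 4 transcripts apart. They are given 5′ to 3′ on the minus strand of chromosome 12, build GRCm38, with in-frame cysteine codons in capitals. Positions are chr12:113329844-113329882 for Ighg1, chr12:113307261-113307326 for Ighg2b, chr12:113288263-113288325 for Ighg2c and chr12:113360529-113360576 for Ighg3.
Ighg1: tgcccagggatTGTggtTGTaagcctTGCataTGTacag
Ighg2b: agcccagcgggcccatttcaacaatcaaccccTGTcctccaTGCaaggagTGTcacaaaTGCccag
Ighg2c: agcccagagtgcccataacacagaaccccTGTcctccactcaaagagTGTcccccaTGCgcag
Ighg3: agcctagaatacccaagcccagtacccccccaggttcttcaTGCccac
The exons held 4, 4, 3 and 1 cysteine codons. Over the first 3 constant exons, Ighg2b and Ighg2c were the closest pair, identical at 90.3% of aligned bases. Ighg1 was 74.1% to 77.0% identical to the others. The reference strain is C57BL/6J, and NOD alleles may differ from it.

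V segments are shorter and closer to each other. The last 120 coding bases of 5 segments are shown because each of them led the heavy chain or kappa V counts of at least 1 library in the results below. The last in-frame cysteine codon, at the start of the antigen-contacting CDR3, is in capitals.
Ighv1-26: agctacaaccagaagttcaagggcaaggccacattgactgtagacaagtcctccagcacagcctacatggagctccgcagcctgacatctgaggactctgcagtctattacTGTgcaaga
Ighv4-1: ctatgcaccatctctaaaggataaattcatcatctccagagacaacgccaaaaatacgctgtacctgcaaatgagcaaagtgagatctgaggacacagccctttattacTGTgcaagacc
Ighv2-3: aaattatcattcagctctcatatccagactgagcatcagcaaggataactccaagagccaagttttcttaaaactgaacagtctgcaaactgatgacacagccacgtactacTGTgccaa
Igkv8-24: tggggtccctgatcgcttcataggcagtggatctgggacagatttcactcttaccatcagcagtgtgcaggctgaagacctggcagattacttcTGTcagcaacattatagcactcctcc
Igkv2-109: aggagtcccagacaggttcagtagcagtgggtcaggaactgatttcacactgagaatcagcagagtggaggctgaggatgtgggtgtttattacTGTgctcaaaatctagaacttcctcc
The heavy chain segments lie on the minus strand at chr12:114788372-114788491 (Ighv1-26), chr12:113948282-113948401 (Ighv4-1) and chr12:113611187-113611306 (Ighv2-3). Igkv8-24 is on the minus strand at chr6:70216858-70216977, and Igkv2-109 is on the plus strand at chr6:68303039-68303158, all in GRCm38. For 25 of the 49 V members, the nearest annotated segment was at least 95% identical, with a median of 95.1% and a range of 80.7% to 98.4%. No source read here states how the authors' counting treated reads shared between such copies, and the split of counts between near-identical segments is uncertain. Antisense overlaps are also uncertain: Iglv1, Iglc1 and Iglc3 overlap the antisense gene 2010309G21Rik (4 counts), and Txndc5 overlaps Bmp6 on the other strand.

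Depth was similar between libraries, from 10994337 to 19284740 counts assigned to genes, but the makeup of the tissue was not. The 30 acinar genes, which mark exocrine pancreas, took 32.4% of counts in IgG 6 and 55.3% in IgG 5, against 64.8% to 72.4% in the other 10 libraries. In IgG 6 the 20 B cell identity genes summed to 4617 normalized counts, against 88.9 to 997 in the other IgG libraries and 60.7 to 899 under anti-CD3. The 14 T cell genes were also highest in IgG 6, at 3274, against 138 to 988 in the other IgG libraries and 93.5 to 1081 under anti-CD3. Genes of lymph node stroma and high endothelial venules summed to 1467 in IgG 6, 13.5 to 146 in the other IgG libraries and 2.43 to 166 under anti-CD3. Of these, Glycam1, a ligand on lymph node venules, had 91.9% of its 2424 counts in IgG 6. The share in IgG 6 was 91.2% for Cr2, 79.2% for Chst4, 70.2% for Madcam1, 57.3% for Cxcl13 and 40.0% for Ccl19. Ccl21a was at 0 in all 12 libraries. More than 1 gene carries that name, and how reads shared between copies were counted is not known. The part of these tissue differences in the results was not tested. Normalized counts are the authors' own, scaled by 1 size factor per library and not by gene length. That factor was 2.52 in IgG 6 and 0.554 to 1.32 in the other libraries.

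Immunoglobulin transcripts took from 0.001% to 0.65% of all counts in IgG libraries and from 0.005% to 0.115% under anti-CD3. Summed over the 60 immunoglobulin members, normalized counts in the IgG group ranged from 126 to 40770 with a median of 2658. In the anti-CD3 group they ranged from 705 to 20818 with a median of 3711. The IgG group held both the 2 lowest libraries (IgG 4 and IgG 3) and the highest (IgG 6), and the groups overlapped. In bulk tissue, fewer B lineage cells and less immunoglobulin RNA per cell cannot be told apart.

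Ighm, which encodes the IgM heavy chain, was the leading heavy chain gene per kilobase of exon in 9 of the 12 libraries. Its normalized counts were 15.6 at the lowest, 915 at the median and 5510 at the highest in the IgG group, and 189, 1314 and 5188 in the anti-CD3 group. The highest value was in IgG 6, followed by anti-CD3 6 and IgG 5, and the groups overlapped over most of their range. Its log2 fold change, anti-CD3 over IgG, was -0.06 ± 1.09 (SE) with an adjusted p of 0.983 in edgeR's quasi-likelihood test, and 0.62 without IgG 6 (adjusted p = 0.860). Igkc, the kappa light chain constant gene, ran from 43.2 through a median of 620 to 8353 in the IgG group and from 193 through 893 to 4675 in the anti-CD3 group. Its extremes were IgG 4 and IgG 6, so both ends of the scale lay in the control group. In the fit, the log2 fold change was -0.35 ± 1.10 (edgeR adjusted p = 0.885), and 1.26 with IgG 6 left out (adjusted p = 0.628).

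The switched isotypes varied widely: between the lowest and the highest library, normalized counts of Ighg1 differed 4013-fold and those of Ighm 354-fold. Ighg1, which encodes IgG1, had 2.27, 1.76, 1.13 and 1.20 normalized counts in IgG 1 to IgG 4, 324 in IgG 5 and 4517 in IgG 6. Under anti-CD3 it had 1370, 55.8, 134, 53.6, 260 and 1747 in libraries 1 to 6. These rest on 1 to 3 raw counts in each of IgG 1 to IgG 4 and on at least 62 in each anti-CD3 library. Every anti-CD3 library thus lay above 4 of the 6 IgG libraries, and IgG 6 lay above them all. The log2 fold change over all 12 libraries was -0.43 ± 1.70 (edgeR adjusted p = 0.911). It was 3.11 ± 1.63 without IgG 6 (adjusted p = 0.402) and 8.37 without both IgG 5 and IgG 6, and none of these passed the test.

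Ighg2b, which encodes IgG2b, was at 0 in IgG 3 and IgG 4 and reached 3514 in IgG 6, with a median of 45.2. Under anti-CD3 it ran from 9.03 through a median of 69.6 to 2620 (anti-CD3 6), inside the control range. Ighg2c, which encodes IgG2c, was 81.7, 98.8, 37.1, 0, 1.56 and 6995 in IgG 1 to IgG 6. It was 361, 123, 2.43, 21.6, 4.26 and 705 in anti-CD3 1 to 6. A single library, IgG 6, held 83.0% of the Ighg2c sum over 12 libraries. Its log2 fold change of -2.58 ± 1.84 (edgeR adjusted p = 0.464) became 2.16 ± 1.42 without that library (adjusted p = 0.516). Ighg3 stayed under the count filter of the fit, with 0 to 204 normalized counts in the IgG group and 0 to 116 under anti-CD3.

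Igha, the constant gene of IgA, an isotype typical of mucosal plasma cells, was 270, 408, 0, 20.4, 148 and 1432 in IgG 1 to IgG 6 and 684, 82.1, 0, 61.4, 32.7 and 854 in anti-CD3 1 to 6. One library in each group was at 0, where 3 counts remain possible. For Igha the log2 fold change was -0.44 ± 1.29 (edgeR adjusted p = 0.877), and 0.71 without IgG 6 (adjusted p = 0.853). Ighd, which naive B cells express with Ighm, ran from 0 through a median of 46.7 to 158 in the IgG group and from 0 through 18.1 to 46.7 in the anti-CD3 group. Its log2 fold change of -1.34 ± 0.88 did not pass the test (edgeR adjusted p = 0.428). It kept its sign without IgG 6, at -0.64, the single heavy chain constant gene among the 6 tested to do so. Ighe, the gene of IgE, had 15 counts in all and was not a member.

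The lambda constant genes had few counts. Iglc1 reached 206 in IgG 6 and 93.8 in anti-CD3 1, and was at 0 in IgG 3, IgG 4 and anti-CD3 4. Iglc2 ranged from 1.13 to 98.1 in the IgG group and from 2.43 to 47.2 under anti-CD3. Iglc3 ranged from 0 to 57.6 and from 1.21 to 18.0. Iglc2 and Iglc3 are 96.5% identical over their coding bases, so their separate counts are uncertain. The log2 fold changes were -0.43 for Iglc1 and -0.30 for Iglc2, and neither passed edgeR's test (adjusted p = 0.882 and 0.879). Without IgG 6 both turned higher, at 1.78 and 1.09 (adjusted p = 0.59 and 0.53).

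**Figure D1:**
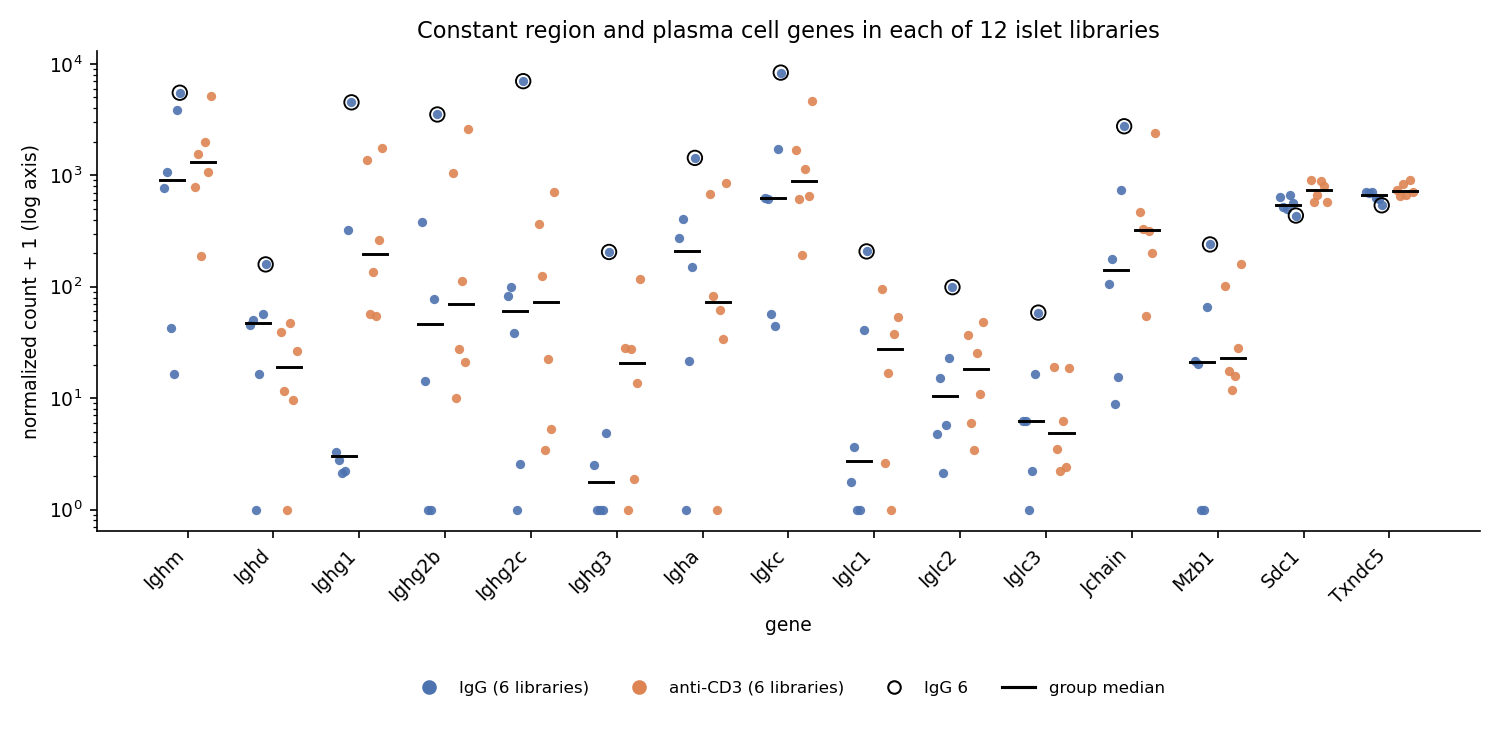
Normalized counts plus 1 (log axis) of the constant region genes and of Jchain, Mzb1, Sdc1 and Txndc5, 1 point per library, IgG in blue and anti-CD3 in orange, with the group median as a bar and IgG 6 ringed. IgG 6 is the highest point for all 11 constant genes, Ighg1 lies between 1.13 and 2.27 in 4 IgG libraries, and the highest value of Sdc1 and of Txndc5 is 2.08-fold and 1.70-fold the lowest.

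Jchain, which encodes the joining chain of polymeric IgM and IgA, followed the constant genes. In the IgG group it was 104, 176, 7.88, 14.4, 731 and 2755 normalized counts in libraries 1 to 6. In the anti-CD3 group it was 469, 327, 53.4, 314, 199 and 2408. The lowest 2 libraries were again IgG 3 and IgG 4 and the highest 2 were IgG 6 and anti-CD3 6. In the fit, Jchain had a log2 fold change of -0.02 ± 1.23 (edgeR adjusted p = 0.995) and 1.57 without IgG 6 (adjusted p = 0.598). Mzb1, a chaperone of the endoplasmic reticulum that helps assemble IgM, was at 0 in IgG 3 and IgG 4 and ran to 239 in IgG 6. Under anti-CD3 it lay between 10.9 and 158, with a log2 fold change of -0.14 ± 1.06 (edgeR adjusted p = 0.957) that became 1.28 without IgG 6 (adjusted p = 0.622).

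The other markers of the rule behaved differently. Sdc1, the surface proteoglycan CD138 of plasma cells, which many epithelia also carry, was 434 at the lowest, 537 at the median and 668 at the highest in the IgG group. It was 572, 730 and 902 under anti-CD3. Its lowest normalized value was in IgG 6, the library with the most immunoglobulin, and the groups overlapped. Before scaling, IgG 6 had the highest Sdc1 count of all libraries, at 1094. The log2 fold change of 0.42 ± 0.16 had an unadjusted p of 0.020 and an adjusted p of 0.197 in edgeR. Txndc5, a protein disulfide isomerase of secretory cells, spanned 537 to 709 in the IgG group and 657 to 911 under anti-CD3, with a log2 fold change of 0.22 ± 0.13 (edgeR adjusted p = 0.364). Its lowest normalized value was also in IgG 6, where its raw count of 1352 was again the highest. On the normalized scale, the plasma cell label is thus carried in these libraries by the immunoglobulin genes, Jchain and Mzb1. Sdc1 and Txndc5 did not vary with them on that scale, and Tnfrsf17 was near 0. For Sdc1 and Txndc5, the place of IgG 6 among the libraries depended on the scaling.

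Over all genes, edgeR called 10 of 13115 (0.0762%) at an adjusted p under 0.05. Of the 64 members, 21 passed the count filter and 0 were called, by edgeR, by DESeq2 or by limma-voom. At an unadjusted p under 0.05, 1 of the 21 members passed in edgeR (Sdc1), where 18.4% of all tested genes did. The members' median log2 fold change was -0.35, beside -0.05 over all tested genes, and 16 were lower and 5 higher. Without IgG 6, 17 of the 19 members then tested were higher and 0 were called (0.0382% of all genes), although 4 had an unadjusted p under 0.05 (Ighv1-26, Igkv1-135, Igkv8-24 and Sdc1; 15.4% of all genes did). Without both IgG 5 and IgG 6, 23 of 25 were higher and 0 were called (0.00757% of all genes). With the mean acinar level as a term in the fit, all 21 were higher, 9 had an unadjusted p under 0.05 (8.99% of all genes did) and again 0 were called. The sign of the difference therefore followed the libraries and terms included, and at no setting was a member called.

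**Figure D2:**
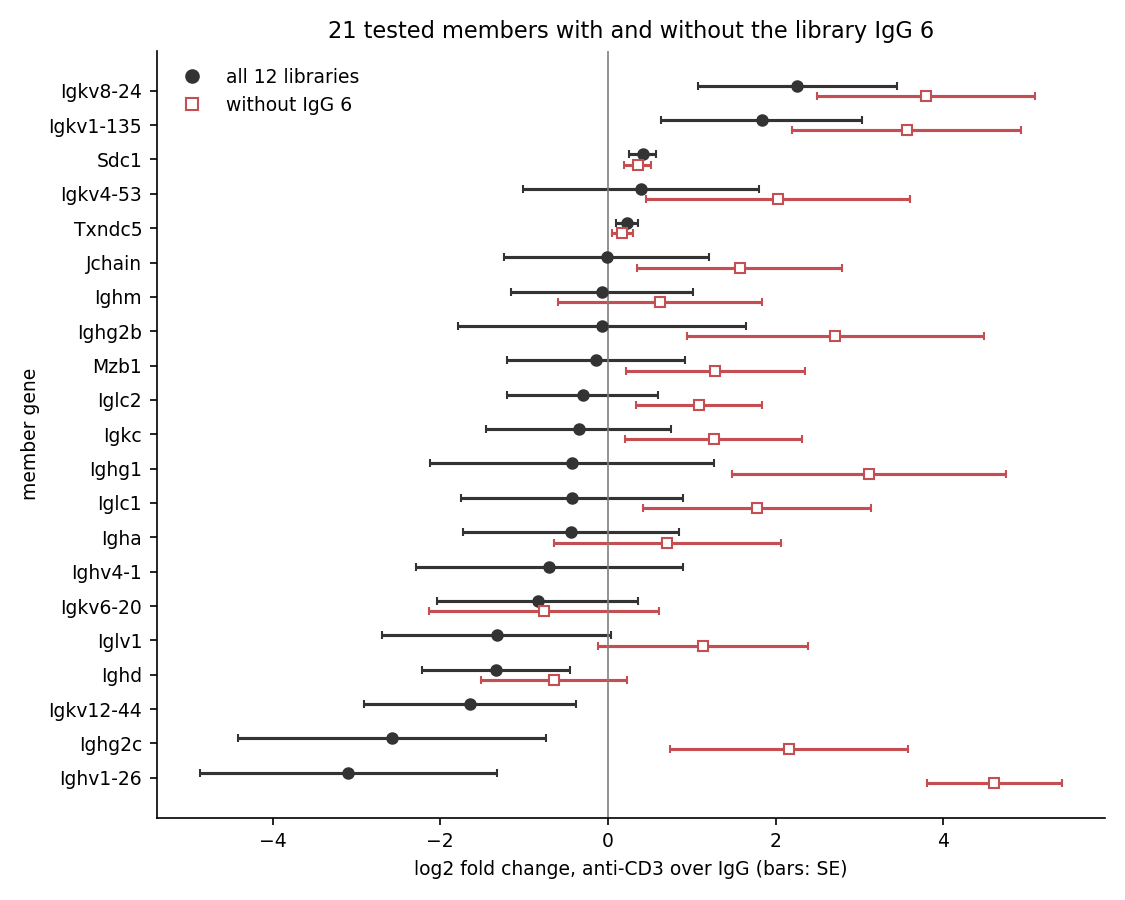
Log2 fold changes (anti-CD3 over IgG) with their SE for the 21 members that passed the count filter, over all 12 libraries (filled circles) and without IgG 6 (open squares, 19 members tested). Most circles lie to the left of 0 and most squares to the right, with Ighv1-26 moving from -3.09 to 4.61.

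In the authors' deposited table, likewise, 0 members had an adjusted p under 0.05, against 490 genes in all. That table gave no p-value for 36 genes, and 23 of them were members, although members made up 0.467% of its genes. Of the 23, 21 were V segments, and Ighg2c was among the others. DESeq2, the tool named in the submitters' processing notes, withholds a p-value where a single count stands far from the rest.

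No member had 6 values of 1 group all above the 6 of the other (0 of 64), where 1.72% of the compared genes did. Without IgG 6, 1 member did so, the heavy chain segment Ighv1-26, where the share over all genes was 2.04% (1.23% in the same direction). Without IgG 5 and IgG 6 there were 2, Ighv1-26 and Ighg1, both higher, with 2.27% over all genes and 1.33% in that direction. These comparisons use normalized counts. In raw counts, Ighv1-26 was level in IgG 2 and anti-CD3 3, at 6 each. The mean was higher under anti-CD3 for 25 of the 64 members (43.3% of all genes) and for 48 of 64 without IgG 6 (46.3%). Among the 7 heavy chain constant genes the count went from 0 to 6, and among the 3 lambda constant genes from 0 to 3.

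Isotype makeup was taken as shares, which set aside how much B lineage RNA a library holds. Ighm took 49.4%, 65.1%, 52.1%, 29.5%, 86.4% and 24.7% of heavy chain constant counts in IgG 1 to IgG 6. It took 18.3%, 84.8%, 50%, 87%, 75.8% and 46.1% in anti-CD3 1 to 6. The means were 51.2% ± 22.8 (SD, n = 6) and 60.4% ± 26.9, a difference smaller than either SD. The 4 IgG subclasses together took from 2.27% to 68.2% in the IgG group and from 8.24% to 64.9% under anti-CD3, with means of 27.4% ± 26.4 and 33.4% ± 23.5. Switched genes (the IgG subclasses and Igha) took 74.6% in IgG 6, 80.8% in anti-CD3 1 and 53.7% in anti-CD3 6. Ighm took over 50% in IgG 2, IgG 3, IgG 5, anti-CD3 2, anti-CD3 4 and anti-CD3 5.

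The subclass in use differed from library to library. Ighg2c dominated the subclasses in IgG 2 (86.8% of subclass counts), IgG 3 (97.1%) and anti-CD3 2 (65.5%), and led in IgG 6 (45.9%). Ighg2b led in IgG 1 (81.8%), anti-CD3 4 (59.6%) and anti-CD3 6 (50.5%), and Ighg1 led in IgG 5 (79.7%), anti-CD3 1 (48.9%), anti-CD3 3 (70.5%) and anti-CD3 5 (87.6%). In IgG 4 the subclasses had a single count. As a share of all heavy chain constant counts, Ighg1 was 0.147%, 0.108%, 1.41%, 2.27%, 7.23% and 20.2% in IgG 1 to IgG 6. It was 31.8%, 3.02%, 35.3%, 2.34%, 18.6% and 15.5% in anti-CD3 1 to 6. The IgG median of 1.84% was exceeded in each of the 6 anti-CD3 libraries, but IgG 5 and IgG 6 lay within the anti-CD3 range. The means were 5.23% ± 7.80 and 17.7% ± 13.9 (SD, n = 6), and the groups overlapped. Without IgG 6 the IgG mean was 2.23%, and IgG 5 still lay within the anti-CD3 range.

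Some of these shares rest on few counts. IgG 3 had 71 and IgG 4 had 44 heavy chain constant counts, so that the Ighg2c share of 46.5% in IgG 3 has an exact (Clopper-Pearson) 95% interval of 34.5% to 58.7%. The Igha share of 38.6% in IgG 4 has an interval of 24.4% to 54.5%. In IgG 6, with 56254 such counts, the interval of the Ighg2c share was 30.9% to 31.7%. These intervals treat each read as an independent draw and cover no other source of spread. Since reads are not independent molecules, the intervals may be too narrow even for counting error.

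**Figure D3:**
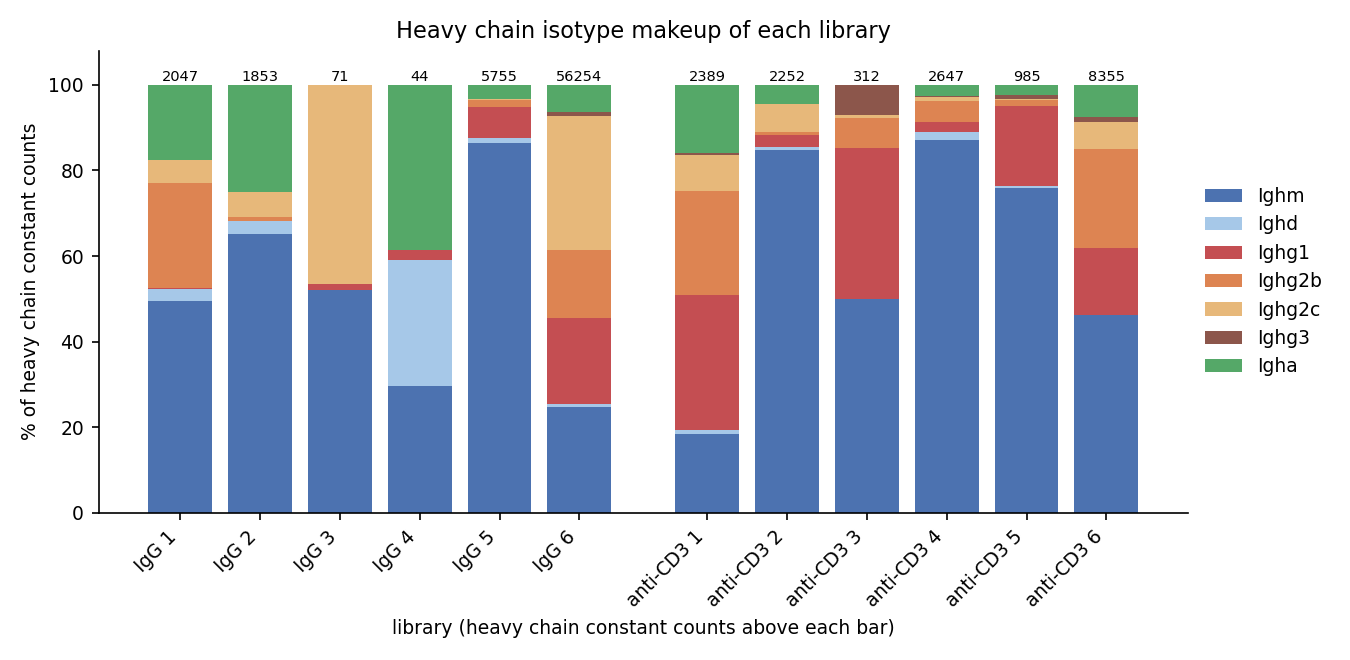
Share of each heavy chain constant gene in the heavy chain constant counts of each library (%, stacked bars from 0), with the number of those counts above the bar. The mix differs within each group, for example 86.4% Ighm in IgG 5 and 24.7% in IgG 6, and the counts per bar run from 44 to 56254.

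Lambda took a small part of the light chain constant counts everywhere. Its share was 1.54%, 3.49%, 1.96%, 12.2%, 4.26% and 4.15% in IgG 1 to IgG 6 and 8.03%, 1.45%, 9.14%, 2.52%, 6.91% and 2.45% in anti-CD3 1 to 6. The means, 4.6% ± 3.89 and 5.08% ± 3.32 (SD, n = 6), differed by less than the spread. The highest share, in IgG 4, came from 5 of 41 counts (exact interval 4.08% to 26.2%). Light and heavy chain constant counts kept close to each other: the log2 ratio of light to heavy, per kilobase of exon, ran from 0.46 to 1.90 in the IgG group and from 0.25 to 1.21 under anti-CD3. Over the same libraries the heavy chain sum itself ran over a 423-fold range.

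Immunoglobulin counts were also set against the B cell genes of the same library. The log2 ratio of summed constant counts to the 20 B cell identity genes was 2.18, 1.59, 0.63, -0.52, 2.66 and 2.75 in IgG 1 to IgG 6. It was 2.78, 4.30, 3.28, 2.70, 2.86 and 4.46 in anti-CD3 1 to 6. The means were 1.55 ± 1.28 and 3.40 ± 0.79 (SD, n = 6). All 6 anti-CD3 values lay above the IgG median, and 5 of them lay above every IgG value, since anti-CD3 4 at 2.70 fell just under IgG 6. Without IgG 6 the groups did not overlap. Per kilobase of exon the direction was the same, and the groups overlapped with and without IgG 6. A sum over members is given without a test.

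**Figure D4:**
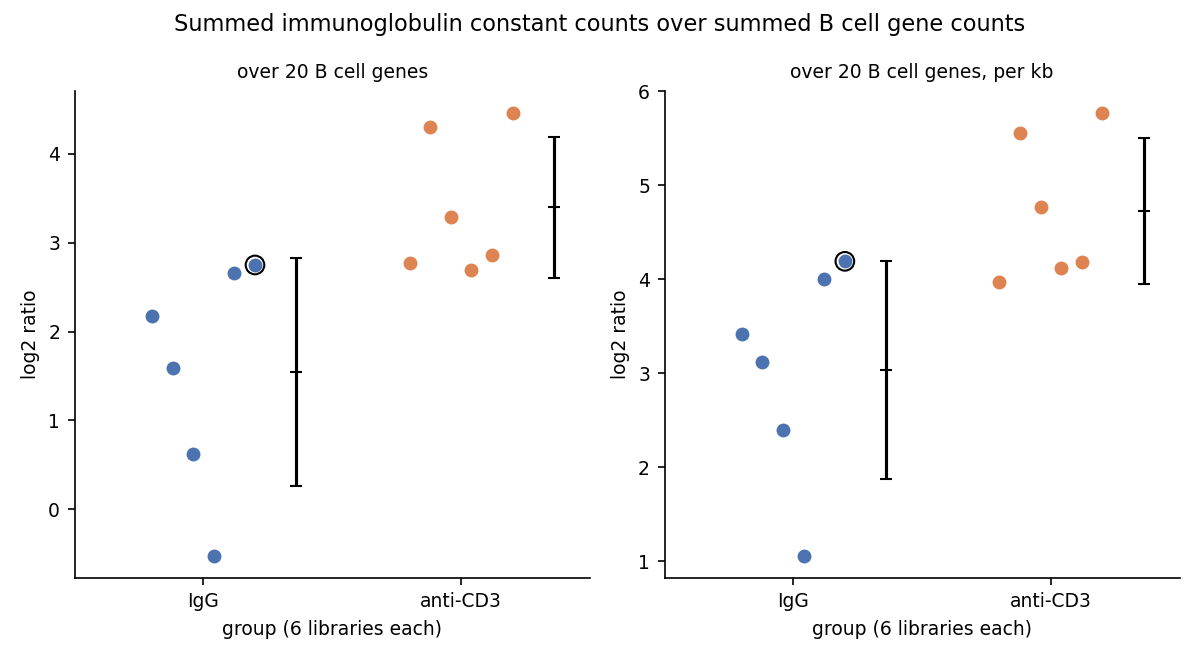
Log2 ratio of summed immunoglobulin constant counts to summed B cell gene counts, 1 point per library (IgG 6 ringed) with the group mean and SD beside the points, for 20 B cell genes as counts (left) and per kilobase (right). The anti-CD3 points lie mostly above the IgG points, with means of 3.40 and 1.55 in the panel of counts, and the lowest anti-CD3 points lie level with IgG 5 and IgG 6.

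The V segments were far more uneven than the constant genes. For 31 of the 49 V members a single library held over 50% of the sum over 12 libraries, as for 3 of the 11 constant genes. The same held for 0.242% of the compared genes that are not members. These shares are not matched for abundance. A segment could also enter the compared genes through 1 library alone, as Ighv1-54 did with 117 of its 122 counts in IgG 6. The unevenness and the top libraries of V members are therefore partly set by that count limit. The share of the top library had a median of 59.8% among V members, from 35.2% to 97.3%, beside a median of 12.8% among genes that are not members. The top library was anti-CD3 6 for 18 V members, IgG 6 for 15, IgG 5 for 7, anti-CD3 1 for 4, IgG 1 for 3 and anti-CD3 2 for 2. By contrast, all 11 constant genes peaked in IgG 6. All 49 V members were at 0 in at least 1 library, 46 of them in IgG 3 and 44 in IgG 4.

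Among heavy chain segments, Ighv1-26 had the highest mean, and it was the leading segment of IgG 6. Its normalized counts were 2.27, 5.29, 0, 0, 0.78 and 2405 in IgG 1 to IgG 6, against 23.5, 46.0, 7.28, 48.4, 34.1 and 123 in anti-CD3 1 to 6. On this scale every anti-CD3 library lay above IgG 1 to IgG 5, and IgG 6 lay far above all. Before scaling, IgG 2 and anti-CD3 3 each had 6 counts, so their order rests on the size factors. For Ighv1-26 the log2 fold change was -3.09 ± 1.77 over 12 libraries (edgeR adjusted p = 0.369) and 4.61 ± 0.80 without IgG 6 (adjusted p = 0.065), which did not pass the test. As a share of heavy chain V counts it was 52.1% in IgG 6, 0.917%, 2.17% and 0.07% in IgG 1, 2 and 5, and 2.70% to 13.8% under anti-CD3. IgG 3 and IgG 4 had 0 of 20 and 0 of 11 such counts, with exact upper limits of 16.8% and 28.5%. Ighv1-18, its nearest annotated copy at 96.9% identity, had 68 counts in all, beside 6314 for Ighv1-26.

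Other heavy chain segments were each high in 1 or a few libraries. Ighv4-1 made up 66.7% of heavy chain V counts in IgG 5, 20.9% in anti-CD3 4 and 19.3% in anti-CD3 6. It was the leading segment in each of these, and was at 0 in 4 libraries. Its log2 fold change was -0.70 ± 1.59 (edgeR adjusted p = 0.838). Ighv2-3 made up 62.4% in anti-CD3 2. Of the normalized counts of Ighv1-39 over 12 libraries, 97.3% were in IgG 6. Ighv5-4 led IgG 1 (33.0%), Ighv14-4 led IgG 2 (13.8%), Ighv14-2 led anti-CD3 1 (19.8%) and Ighv1-36, which is not a member, led anti-CD3 5 (17.2%). The 9 libraries with at least 100 V counts at a locus thus had 7 different leading heavy chain segments.

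The kappa segments also had 7 different leaders in those 9 libraries. Like Ighv4-1 among heavy chain segments, Igkv8-24 led more than 1 library, namely 3 of the 5 anti-CD3 libraries with enough counts. Its normalized counts were 3.78, 15.9, 0, 0, 43.7 and 160 in IgG 1 to IgG 6 and 28.9, 112, 0, 392, 129 and 481 in anti-CD3 1 to 6. The groups overlapped, with anti-CD3 3 at 0. The log2 fold change was 2.26 ± 1.19 (edgeR adjusted p = 0.328) and 3.79 ± 1.30 without IgG 6 (adjusted p = 0.206). As a share of kappa V counts it was 31.9%, 58.7%, 34.5% and 14.6% in anti-CD3 2, 4, 5 and 6 and 2.88% in anti-CD3 1. It was 1.39%, 5.06%, 4.14% and 3.13% in IgG 1, 2, 5 and 6. Anti-CD3 3 had 0 of 66 kappa V counts, with an exact upper limit of 5.44%. IgG 3 and IgG 4 had 0 of 12 and 0 of 19, with limits of 26.5% and 17.6%, too few counts to compare. Its nearest copy, Igkv8-30, was 91.0% identical and had 4 counts in all. Because Igkv8-24 was singled out among the segments after its values were seen, these shares are a description.

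**Figure D5:**
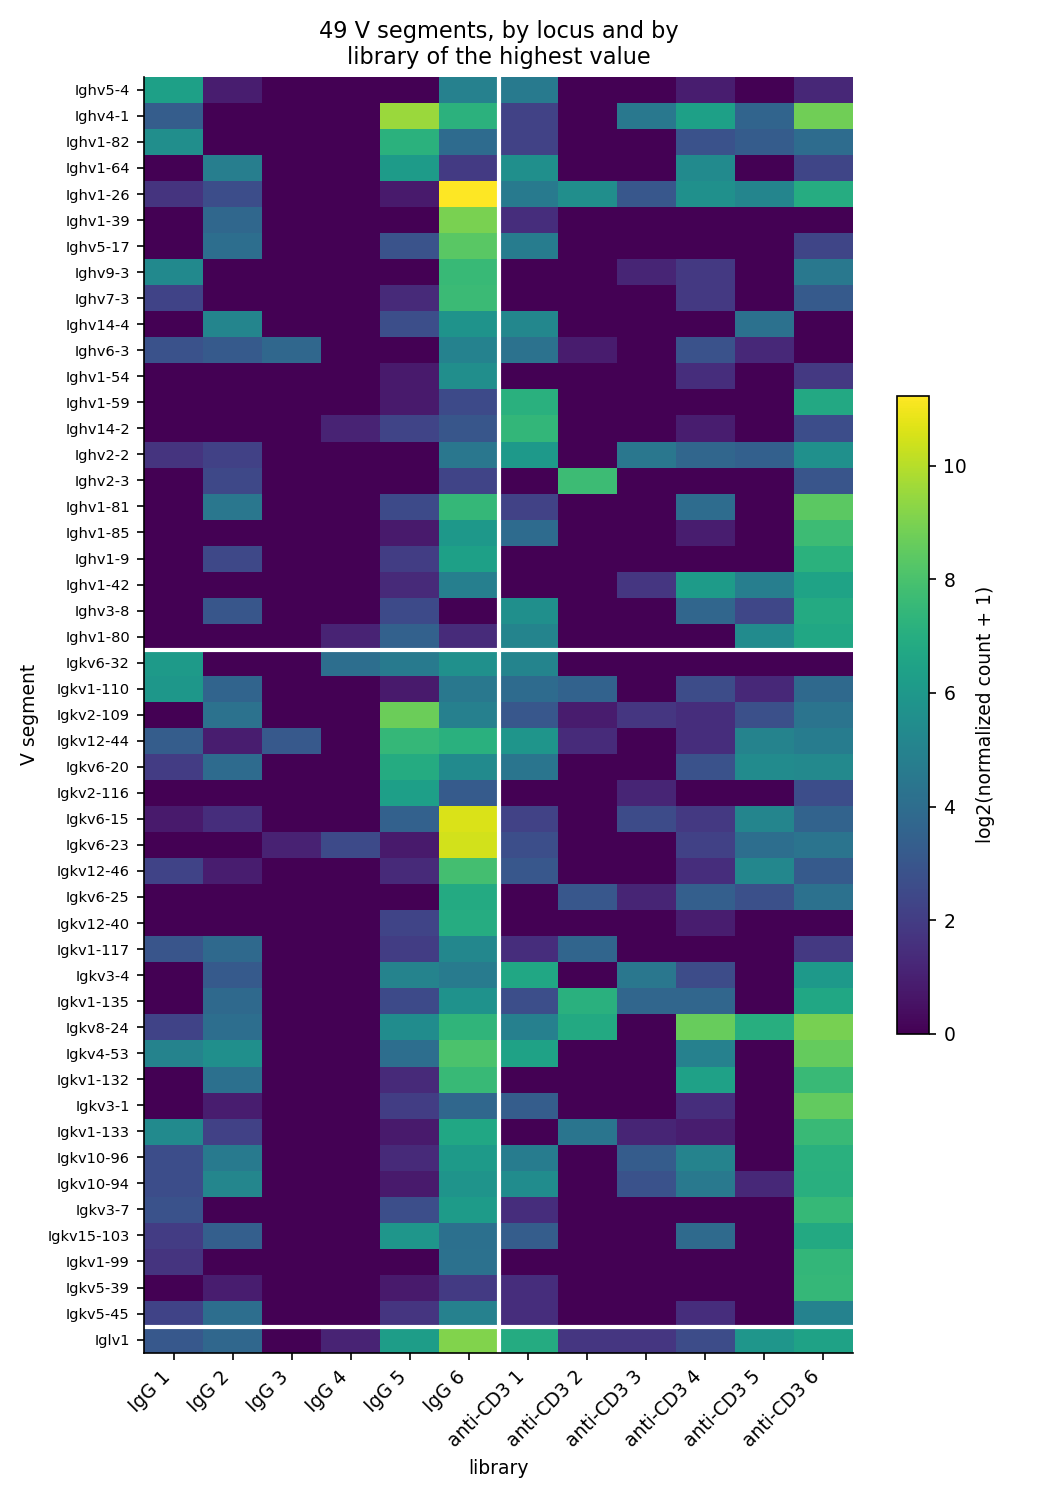
Heat map of log2(normalized count + 1) for the 49 V members (y axis, heavy chain, kappa and lambda from top to bottom, separated by white lines) in the 12 libraries (x axis), ordered by the library of the highest value. Most segments are bright in 1 or a few libraries, and the columns IgG 3 and IgG 4 are nearly empty, with 46 and 44 of 49 segments at 0.

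In IgG 6, 2 similar kappa segments were high together. Igkv6-15 had 1551 normalized counts there and at most 34.1 elsewhere, and Igkv6-23 had 1416 and at most 18.9 elsewhere. They made up 30.3% and 27.7% of the kappa V counts of IgG 6. Their V exons are shown because the copies could share reads: they differ at 16 of 298 bases (94.6% identity), which are in capitals below. Both lie on the minus strand, at chr6:70406469-70406766 and chr6:70260409-70260706 (GRCm38).
Igkv6-15: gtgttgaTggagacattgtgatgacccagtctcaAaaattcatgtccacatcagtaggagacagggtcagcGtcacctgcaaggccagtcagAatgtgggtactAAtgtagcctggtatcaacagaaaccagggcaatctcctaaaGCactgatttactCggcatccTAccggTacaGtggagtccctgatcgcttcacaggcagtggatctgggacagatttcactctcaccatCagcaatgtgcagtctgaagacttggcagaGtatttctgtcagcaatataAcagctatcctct
Igkv6-23: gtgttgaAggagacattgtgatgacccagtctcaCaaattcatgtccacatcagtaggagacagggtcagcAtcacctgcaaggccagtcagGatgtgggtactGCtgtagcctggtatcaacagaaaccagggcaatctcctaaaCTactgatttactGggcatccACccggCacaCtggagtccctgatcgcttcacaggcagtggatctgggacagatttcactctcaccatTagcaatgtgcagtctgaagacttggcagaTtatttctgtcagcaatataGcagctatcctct
Whether these are separate rearranged genes or 1 gene whose reads were split between copies cannot be read from gene counts.

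Igkv2-109 was the leading kappa segment of IgG 5, at 39.4% of its kappa V counts, with 416 normalized counts against at most 29.0 in any other library. Igkv1-135 made up 40.1% of kappa V counts in anti-CD3 2. Igkv4-53, the most abundant kappa segment of IgG 2 (15.2%), ran from 0 to 262 in the IgG group and from 0 to 377 under anti-CD3, with a log2 fold change of 0.39 ± 1.41 (edgeR adjusted p = 0.900). Iglv1, the single lambda V member, was 555 in IgG 6, 0 in IgG 3 and 2.43 to 119 under anti-CD3. Its log2 fold change was -1.33 ± 1.36 (edgeR adjusted p = 0.614), and 1.13 without IgG 6 (adjusted p = 0.726).

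The evenness of V use was compared as an effective number of segments, the number of equally used segments that would give the same Shannon entropy. For heavy chains it ran from 4.10 (IgG 5) to 16.1 (IgG 2) in 4 IgG libraries and from 3.63 (anti-CD3 2) to 18.7 (anti-CD3 6) in 5 anti-CD3 libraries. For kappa it ran from 8.48 to 20.7 and from 4.94 to 22.3. The group means, 8.93 ± 5.06 and 13.2 ± 6.14 (SD, n = 4 and 5) for heavy chains and 12.6 ± 5.55 and 12.6 ± 8.12 for kappa, differed by less than the spread. At a common depth of 174 heavy chain V counts, the expected number of segments was 17.5 to 22.4 in the IgG libraries and 8.42 to 30.7 under anti-CD3. IgG 3, IgG 4 and anti-CD3 3 had under 100 V counts per locus and are left out.

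Genes that act around antibody production were examined as lists. For comparison, 5882 of all 13115 genes tested by edgeR were higher, 7233 were lower and 0.0762% were called. At an unadjusted p under 0.05, 18.4% of them passed in edgeR. Of the 14 regulators and secretory genes of plasma cells, all were tested, 6 were higher, 8 lower and 0 were called by edgeR (4 at an unadjusted p under 0.05). The list's median log2 fold change was -0.19, and 0.21 without IgG 6. Xbp1, the transcription factor of the secretory program in plasma cells and also in acinar cells, ran from 1685 through a median of 3405 to 3599 in the IgG group and from 3906 through 4797 to 6996 under anti-CD3. The groups did not overlap, as for 1.72% of the compared genes (1.09% in this direction). The log2 fold change of Xbp1 was 0.79 ± 0.22, with an adjusted p of 0.108 in edgeR. It passed in DESeq2 (adjusted p = 0.027), as did the chaperone gene Fkbp11, where 3.76% of all genes did. With the acinar level as a term in edgeR's fit the Xbp1 value was 0.47. Its lowest value was in IgG 6, where acinar counts were lowest, and the part of acinar RNA in this difference was not tested. Sec11c, a signal peptidase subunit, had a log2 fold change of 0.70 ± 0.22 (edgeR adjusted p = 0.144), and Edem1, of the degradation pathway for misfolded proteins, 0.27 ± 0.15 (adjusted p = 0.349).

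Of the 20 B cell identity genes, 17 were tested, 17 were lower and 0 were called, with a median of -1.44 (-0.30 without IgG 6). At an unadjusted p under 0.05, 1 of them passed in edgeR (Ebf1), where 18.4% of all tested genes did. Cd79a, a signalling subunit of the B cell receptor, had a log2 fold change of -1.24 ± 0.81, and Cxcr5, the follicle-homing chemokine receptor, -1.94 ± 0.92 (edgeR adjusted p = 0.423 and 0.279). Without IgG 6 these were -0.08 and -0.38 (adjusted p = 0.972 and 0.837). All 20 genes had their highest value in IgG 6, and no share of all genes peaking there is given beside this.

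Of 12 genes of class switching and germinal centres, 6 were tested, 1 was higher, 5 were lower and 0 were called, with 2 at an unadjusted p under 0.05 (Ung and S1pr2). Without IgG 6, 3 of the 6 were higher and 3 were lower. In that edgeR fit 0 had an unadjusted p under 0.05, where 15.4% of all genes did. Over all 12 libraries Ung, a uracil glycosylase of DNA repair, was the one that was higher. It had 25.0 to 32.8 normalized counts in the IgG group and 35.2 to 52.5 under anti-CD3, without overlap. The groups were likewise apart for 1.72% of the compared genes (1.09% in this direction). Ung was singled out after its values were seen. Rgs13, a germinal centre gene, had 95.3% of its 86 counts in IgG 6. Mki67, a proliferation marker, had medians of 106 and 56.8 normalized counts in IgG and anti-CD3, Bcl6, the germinal centre regulator, 83.7 and 83.1, and the death receptor gene Fas 75.0 and 64.4. Rag1 and Rag2, which make the recombinase of developing lymphocytes, were at 0 in all 12 libraries, and none of the 5 recombination genes passed the count filter.

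Of 10 Fc and immunoglobulin transport receptors, 8 were tested, 8 were lower and 0 were called (0 at an unadjusted p under 0.05, and 3 of 8 higher without IgG 6). Trim21, a cytosolic antibody receptor, had medians of 130 in IgG and 88.0 under anti-CD3, Fcgr1, the high-affinity IgG receptor, 75.6 and 51.3, and Pigr, which carries polymeric IgA and IgM across epithelia, 71.5 and 44.7. Of 10 survival and attraction factors for B and plasma cells, 6 were tested, 1 was higher, 5 were lower and 0 were called (0 at an unadjusted p under 0.05). Without IgG 6, 3 were higher and 3 lower, and without IgG 5 and IgG 6 all 6 were higher, with 0 called. Il6, a plasma cell growth factor, had medians of 616 and 699, Tgfb1, which promotes switching to IgA, 128 and 102, and Cxcl12, a chemokine of plasma cell niches, 105 and 116. In each of these 3 genes the highest value was in IgG 6.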

How the data were processed

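Islet poly(A) RNA was sequenced in 6 IgG and 6 anti-CD3 libraries. Per the submitters' processing notes, the tools were Trimmomatic 0.36, STAR 2.5.2b, featureCounts of Subread 1.5.2 and DESeq2, with GRCm38 (mm10); no source read here gives strand or multi-mapping settings. The deposited files hold raw counts per gene, normalized counts (a signal the authors made by dividing counts by 1 size factor per library), the authors' log2 fold changes, and their p-values. All 12 value columns matched a label.

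The whole count table was tested with edgeR 4.0.16 (TMM, filterByExpr with a minimum of 10, robust quasi-likelihood fit, two-sided, Benjamini-Hochberg adjusted p under 0.05). DESeq2 1.42.0, limma 3.58.1 and other alternatives are in the closing section. Scripts were checked on simulated counts. Members and gene lists were chosen with earlier results of these data known. Named were all constant genes, the single genes of the rule, the V segments with the highest mean (5 heavy, 5 kappa and the 1 lambda member, where the rule allowed 3), and 3 genes per list with the highest mean; some listed genes are not reported here, and other genes named were chosen after their values were seen. Shares and ratios use raw counts; exon lengths and sequences are from GENCODE on GRCm38. A search for the octamer motif in V promoters was not run.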

Additional observations from a re-analysis of the deposited data

Results flagged for a closer look

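Of 68 groups of samples examined (a gene or measure within IgG or within anti-CD3), 37 had 1 library standing far from the others by Dixon's test. Groups held 6 samples, or 4 or 5 for V evenness. IgG 6 was that library in 22 of them and anti-CD3 6 in 9. The test's rate of about 1 in 20 holds for normally distributed values. Most values here were counts without a log scale, from the same libraries, so that rate is no guide to chance. Ighv1-39 in anti-CD3 1 was flagged for 1 raw count against 0 in the rest of its group. The part of tissue makeup in the flags was not tested.

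In IgG 6, on the normalized count scale, the values were 1432 for Igha, 158 for Ighd, 4517 for Ighg1, 3514 for Ighg2b, 6995 for Ighg2c, 204 for Ighg3 and 8353 for Igkc. The lambda genes had 206 for Iglc1, 98.1 for Iglc2, 57.6 for Iglc3 and 555 for Iglv1. Jchain had 2755 and Mzb1 239. Among heavy chain V segments, Ighv1-26 had 2405, Ighv1-39 504, Ighv1-81 177 and Ighv5-17 329. Among kappa V segments, Igkv4-53 had 262, Igkv6-15 1551, Igkv6-23 1416 and Igkv8-24 160. The Ighg1 share of heavy chain constant counts, 20.2%, also stood apart.

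In anti-CD3 6 the values were 5188 for Ighm, 4675 for Igkc, 116 for Ighg3, 2408 for Jchain, 123 for Ighv1-26, 338 for Ighv1-81, 447 for Ighv4-1, 18.9 for Igkv2-109 and 377 for Igkv4-53. In IgG 5, Ighv4-1 had 743 and Igkv2-109 had 416. In anti-CD3 1, Ighv1-39 had 1.80 and Ighv5-17 had 25.3. In anti-CD3 5, Igkv6-15 had 34.1. In IgG 4, the lambda share of light chain constant counts was 12.2%.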

How the results depend on the processing

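No member was called under any alternative. The number of genes called over the whole table, 10 in edgeR, was 6 with upper-quartile factors, 5 without robust estimation, 167 without a filter on low counts, 44 in limma-voom, 454 in DESeq2, 0 with the acinar term, 1 without IgG 5 and IgG 6, and 0 to 203 with 1 library left out. Members whose groups do not overlap numbered 0, then 1 without IgG 6 and 2 without IgG 5 and IgG 6 (settings chosen after seeing the data). Shares, V evenness and the ratio to B cell genes moved by less than 1 SD between replicates under each alternative tried.

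Same-numbered libraries were not shown to be paired. Their deviations correlated at over 0.1 in 3 of 6 pairs. For 3 of 6 IgG libraries, the best match among the anti-CD3 libraries was the one of the same number. With the replicate block, 0 genes and 0 members were called, and 10 members turned higher: log2 2.79 for Ighg1, 1.78 for Ighv1-26, 1.12 for Jchain, 0.87 for Iglc1, 0.85 for Ighv4-1, 0.81 for Ighg2b, 0.78 for Ighm, 0.74 for Igkc, 0.59 for Mzb1 and 0.22 for Iglc2.

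Lower values in anti-CD3 also reversed with the acinar term: 7.84 for Ighg1, 7.40 for Ighv1-26, 4.76 for Ighg2b, 4.39 for Iglc1, 4.00 for Jchain, 3.87 for Ighv4-1, 3.57 for Iglv1, 3.43 for Ighg2c, 3.34 for Igkc, 3.04 for Mzb1, 2.90 for Ighm, 2.19 for Iglc2, 1.57 for Igha, 1.06 for Cd79a, 0.74 for Cxcr5 and 0.24 for Ighd. Without IgG 5 and IgG 6 the values were 8.37 for Ighg1, 5.05 for Ighv4-1, 4.90 for Iglc1, 4.41 for Ighv1-26, 3.00 for Jchain, 2.94 for Iglv1, 2.63 for Ighg2b, 2.31 for Mzb1, 2.14 for Igkc, 1.91 for Ighm, 1.83 for Ighg2c, 1.71 for Iglc2, 0.66 for Igha, 0.45 for Cd79a and 0.011 for Cxcr5. In limma-voom they were 4.19 for Ighv1-26, 3.88 for Ighg1, 2.46 for Ighg2b, 1.97 for Ighm, 1.87 for Ighv4-1, 1.6 for Igkc, 1.56 for Jchain, 1.44 for Mzb1, 0.98 for Ighg2c, 0.80 for Iglc1, 0.48 for Iglc2 and 0.20 for Iglv1, and -0.38 for Igkv4-53. Jchain was 0.011 with upper-quartile factors and 0.0019 without a filter. The cause of these reversals was not tested.

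With 1 library left out, log2 values ran from -3.61 to 4.61 for Ighv1-26, -3.57 to 2.16 for Ighg2c, -2.59 to 1.51 for Ighv4-1, -1.87 to 1.13 for Iglv1, -1.48 to 2.71 for Ighg2b, -1.45 to 2.03 for Igkv4-53, -1.20 to 1.57 for Jchain, -1.18 to 0.71 for Igha, -1.14 to 1.26 for Igkc, -1.11 to 3.11 for Ighg1, -1.06 to 1.78 for Iglc1, -0.84 to 1.28 for Mzb1, -0.73 to 0.62 for Ighm and -0.72 to 1.09 for Iglc2. The upper end was reached without IgG 6, except for Ighv4-1 (without IgG 5). Libraries with 44 to 71 heavy chain constant counts limit the shares of IgG 3 and IgG 4.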
